A study of Mus musculus with 12 samples.

Results

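Antioxidant and glutathione genes encode the enzymes that remove superoxide and peroxides, keep thiols reduced and attach glutathione to reactive compounds. They were picked from the count table by symbol: the glutathione peroxidases, peroxiredoxins, superoxide dismutases, thioredoxins and their reductases, glutaredoxins and the cytosolic glutathione transferases, plus Gsr, Gss, Gclc, Gclm, Hmox1, Nqo1, Srxn1, Nfe2l2 and Keap1. This gave 56 of 37991 genes, of which 50 had enough counts to be tested. The other 6 were Gsta1, Gpx5, Gstm2-ps1, Gstm3, Gstm6 and Gstt4, whose highest count in any library was 2, 1, 0, 18, 11 and 3.

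The study sequenced RNA of pancreatic islets from male C57BL/6 mice. Tg7 mice overexpress miR-7 in β-cells, and their littermates without the transgene (Wt) were the controls. Islets were taken at 2 weeks (2w) or 12 weeks of age (12w), which with the genotype gives 4 groups of 3 libraries, and every library pooled the islets of several animals. The sources used here do not name the transgene promoter, and p values measure the spread between pools, not between mice.

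Glutathione is made in 2 steps, by glutamate-cysteine ligase (Gclc and Gclm) and glutathione synthetase (Gss), and glutathione reductase (Gsr) restores it from its oxidised form. Peroxidases and peroxiredoxins reduce peroxides at its expense or at the expense of thioredoxin. The transcription factor Nrf2 (Nfe2l2), held back by Keap1, drives many of these genes through antioxidant response elements. β-cells are known for low levels of several hydrogen peroxide-removing enzymes while they fold large amounts of insulin, a process that itself makes peroxide in the endoplasmic reticulum.

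Totals ranged from 11610697 to 17515758 counts per library. The insulin genes took 10.1 to 15.4% of counts in 2w Wt libraries and 1.84 to 4.09% in 2w Tg7 libraries, and 14.8 to 30.0% and 8.08 to 8.24% at 12w. Levels are therefore given as CPM, each gene's share of a library's counts scaled to one common total with TMM factors. The summed level of 12 β-cell markers was 111172 to 180912 CPM in 2w Wt and 27705 to 52799 CPM in 2w Tg7 libraries, and 199295 to 482695 CPM against 100491 to 105833 CPM at 12w. This sum includes Ins1 and Ins2, the insulin genes of the shares above. All 12 markers passed the filter on low counts. At each age, 10 of them were lower in Tg7 islets with an adjusted p below 0.05 in edgeR's test. In whole islets, fewer cells of a type and less RNA per cell cannot be told apart. Mature miR-7 was not measured, and the hairpin gene Mir7-2 had 0 to 8 counts in Tg7 and 2 to 13 in Wt libraries, so it does not check the genotype. On the third principal component, Tg7 2w replicate 3 (-53.8) and Wt 12w replicate 1 (-47.2) stood apart from the other 10 libraries (-7.85 to 27.0). Calls of members lost without either are named below with their values.

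Per kilobase of exon, Gpx3, the secreted plasma glutathione peroxidase, was the most abundant member in all 4 groups. Its mean level per kb was 795 CPM (2w Wt), 1601 CPM (2w Tg7), 1132 CPM (12w Wt) and 1317 CPM (12w Tg7). Cytosolic Sod1 was next, at 323, 378, 368 and 404 CPM per kb, followed in 12w Wt islets by Gpx1, the main cytosolic glutathione peroxidase, at 245 CPM per kb. The dedicated glutathione genes were far lower, with 25.3 CPM per kb for Gclm, 18.6 for Gclc and 7.16 for Gss in the same islets. Gpx3 alone made up 29.6 to 54.2% of the summed CPM of all 56 genes in a library.

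Tg7 islets at 2w had more members up than down, a balance that rested on single libraries. A gene is called upregulated or downregulated when its adjusted p lies below 0.05 in edgeR's quasi-likelihood test. The p values were adjusted by the Benjamini-Hochberg method across the 15961 genes tested, in 1 fit of all 12 libraries. Other fits that differ are named for many genes, but not for every gene. At 2w, 8 members were upregulated and 3 downregulated, 22% of the 50 tested, beside 10.6% of all tested genes (6.07% up, 4.55% down). The upregulated members were Gsta4, Gstt3, Sod3, Gstt1, Gstt2, Prdx4, Gstm5 and Gstz1, and 6 of these 8 are glutathione transferases. Gpx2, Glrx and Glrx5 were downregulated. The median log2 fold change of the 50 members was 0.23, and that of all tested genes was 0.03. Without Tg7 2w replicate 3, 2 members were up and 3 down, and without Wt 2w replicate 3, 2 were up and 2 down. Calls of all tested genes fell in these fits too, from 969 up and 726 down to 647 and 445, and to 377 and 377. Scaled by library size alone, 15 members were up and 2 down at 2w, with the median of all genes moved by 0.17. Of all tested genes, 1670 were then up and 317 down. In 13 members every Tg7 library lay above every Wt library (26%, beside 17.8% of all tested genes) and in 4 members below (8%, beside 18.1%).

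At 12w, calls were more frequent and about balanced. Upregulated were 8 members (Prdx4, Gsto2, Hmox1, Gpx8, Gstp1, Gstm5, Txnrd2 and Gstz1) and downregulated were 7 (Gstm2, Gpx2, Glrx5, Gpx1, Glrx, Prdx3 and Prdx6). These make up 30% of the members tested, beside 23.6% of all tested genes (12.5% up, 11.2% down). The median log2 fold change was 0.01 for the members and -0.01 for all tested genes. The balance depended on the scaling: library size alone gave 17 members up and 2 down, with the median of all genes moved by 0.44, and Glrx, Glrx5, Gpx1, Prdx3 and Prdx6 lost their calls. Of all tested genes, 5198 were then up and 360 down, beside 1989 and 1783 with TMM factors. Upper-quartile factors gave 8 members up and 4 down, and 2418 and 1317 of all tested genes. Every Tg7 library lay above every Wt library in 8 members (16%, beside 20.7% of all genes) and below in 9 (18%, beside 16.3%). Prdx4, Gstm5 and Gstz1 were upregulated at both ages, where 3.65% of all tested genes were, and Gpx2, Glrx and Glrx5 were downregulated at both, where 3.14% of all tested genes were. In this fit no member was called in opposite directions at the 2 ages, and 30 of the 50 members were called at neither. The Gpx1 libraries lay above Wt at 2w and below Wt at 12w, and DESeq2 on each age alone called both.

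**Figure D1:**
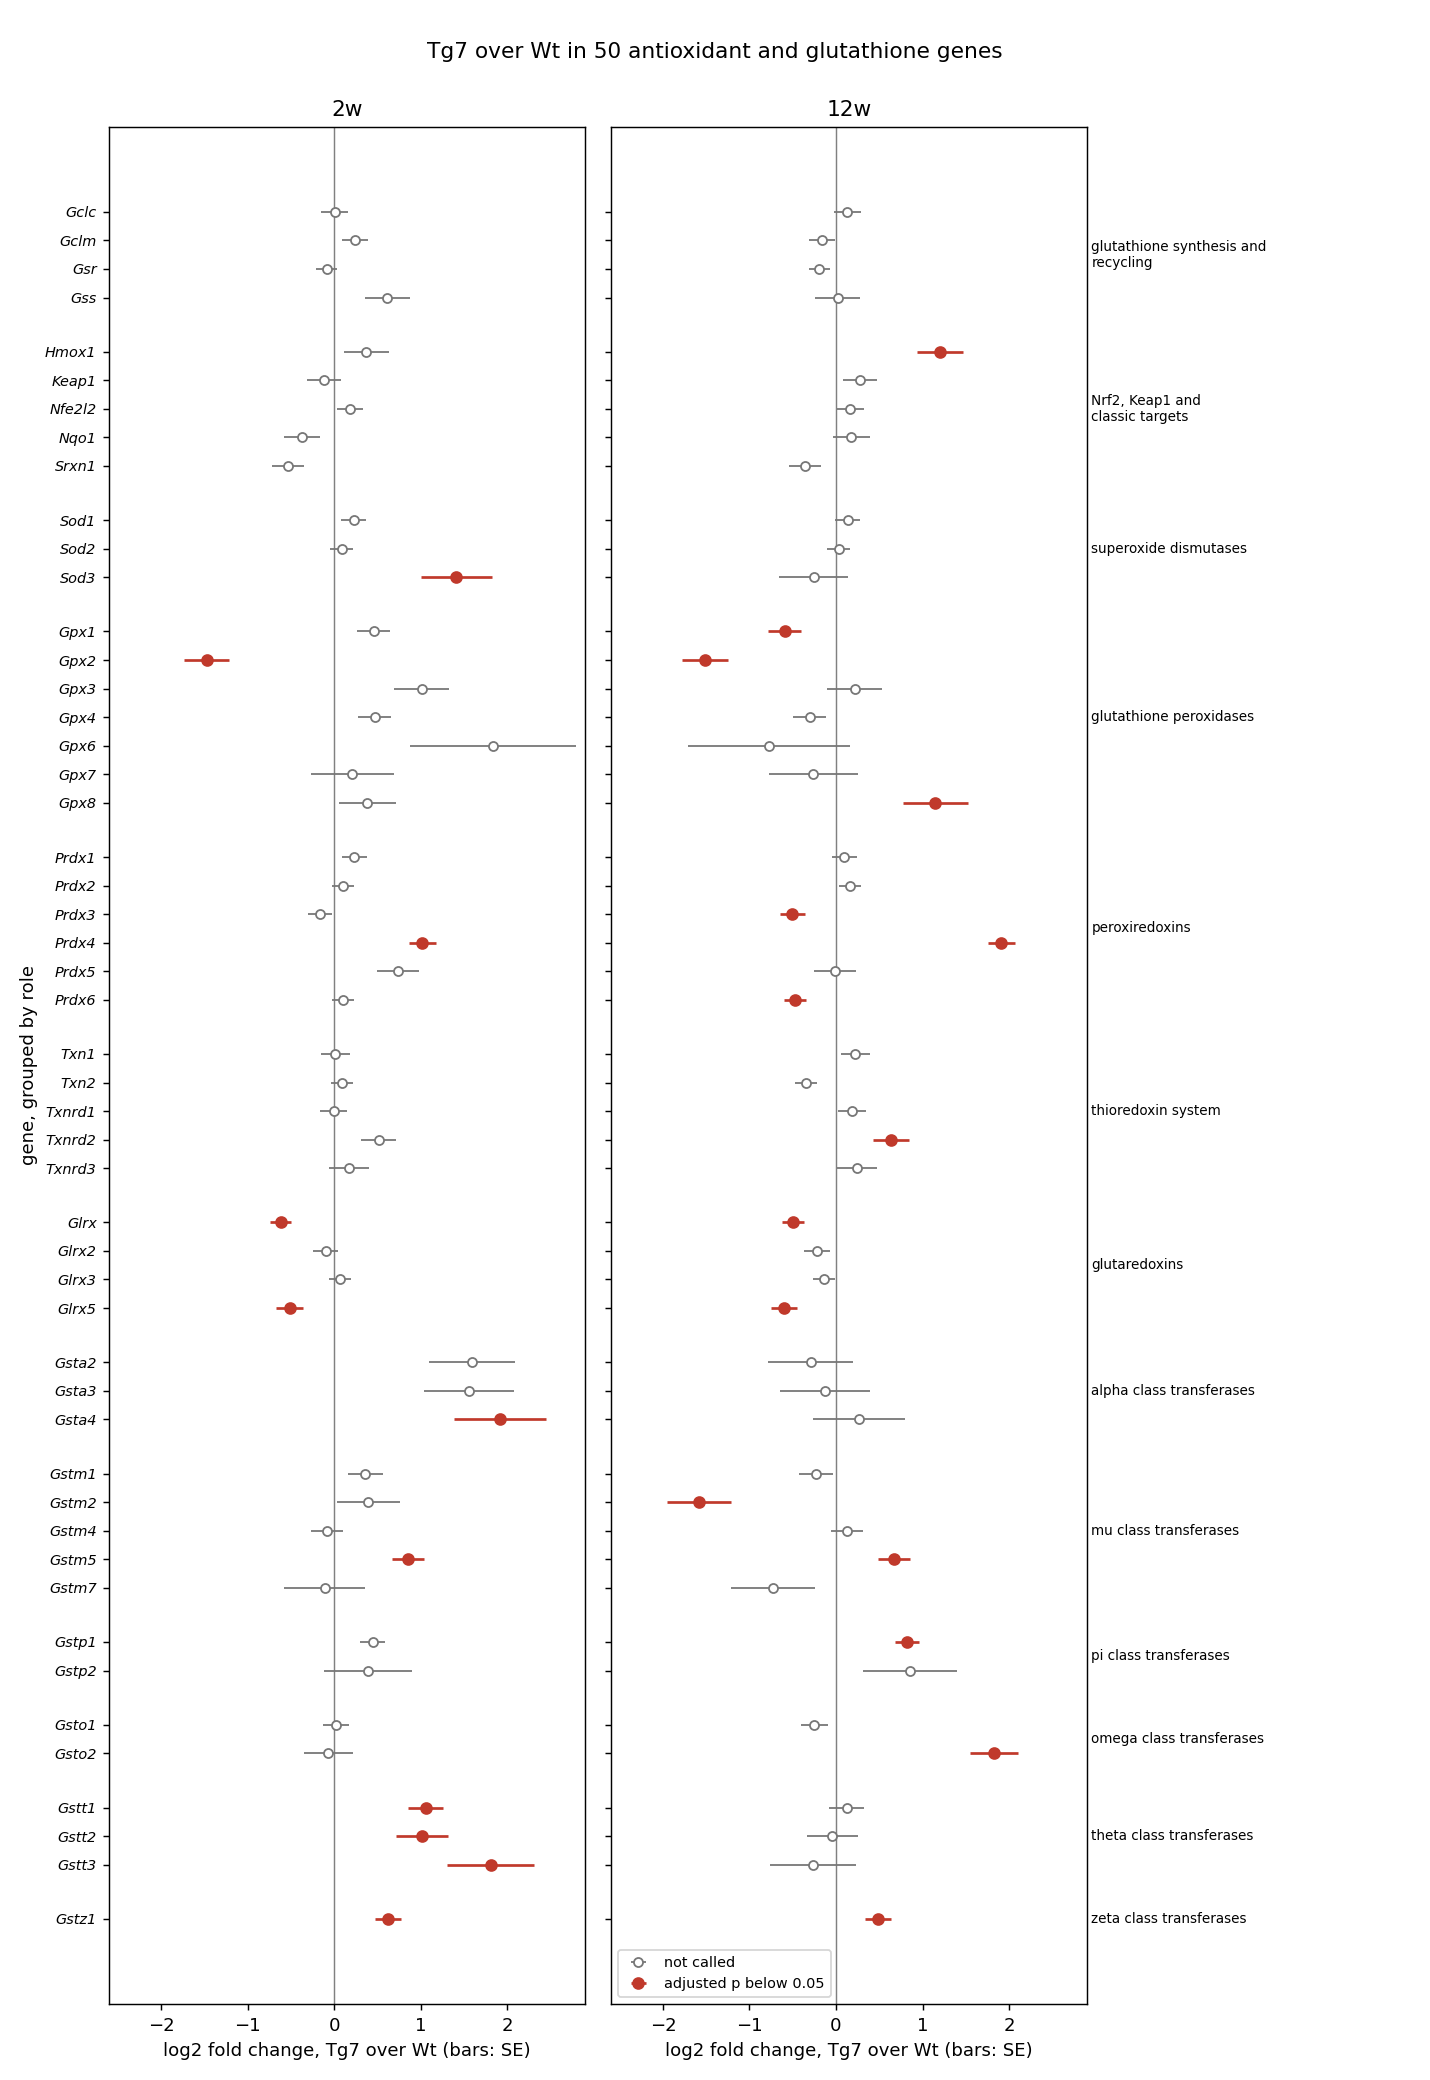
Log2 fold change of Tg7 over Wt islets with its standard error for the 50 tested genes, grouped by role, at 2w on the left and at 12w on the right. Filled red points have an adjusted p below 0.05. Prdx4 lies far to the right and Gpx2 far to the left at both ages, Gsto2 lies to the right at 12w only, and the 4 glutathione synthesis and recycling genes stay near 0 at 12w.

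The genes that make and recycle glutathione were not called. Gclc, the catalytic subunit, had 64.3, 78.1 and 83.5 CPM in Wt and 84.7, 62.4 and 79.5 CPM in Tg7 libraries at 2w, and 58.2, 54.2 and 78.1 CPM against 70.1, 72.9 and 66.1 CPM at 12w. Gclm, the regulatory subunit, had 118, 124 and 113 CPM in Wt and 136, 129 and 154 CPM in Tg7 libraries at 2w, and 128, 100.3 and 162 CPM against 113, 118 and 118 CPM at 12w. The Wt and Tg7 libraries of Gclc overlapped at both ages, and those of Gclm at 12w. Gsr had 68.4, 63.05 and 75.7 CPM in Wt and 63.7, 65.7 and 66.1 CPM in Tg7 libraries at 2w, and 78.02, 69.3 and 89.5 CPM against 70.3, 73.5 and 63.1 CPM at 12w. These groups overlapped as well. At 2w the log2 fold changes were 0.00 ± 0.16 for Gclc, 0.24 ± 0.15 for Gclm, 0.61 ± 0.26 for Gss and -0.08 ± 0.12 for Gsr (SE), with adjusted p between 0.15 and 0.99 in edgeR's test. At 12w they were 0.13 ± 0.16, -0.16 ± 0.15, 0.02 ± 0.26 and -0.19 ± 0.12, with adjusted p between 0.28 and 0.967. Before adjustment, Gss at 2w was the 1 value of these 8 below 0.05, and DESeq2 called none of them at either age. Gss had 25.6, 31.6 and 29.1 CPM in Wt and 26.2, 38.5 and 67.2 CPM in Tg7 libraries at 2w, so that Tg7 2w replicate 3 lay far above the rest. Without that library the 2w log2 fold change of Gss was 0.16 ± 0.21 (adjusted p = 0.722), and without Tg7 2w replicate 1 Gss was called upregulated. At 12w it had 44.7, 45.8 and 32.5 CPM in Wt and 37.3, 39.7 and 47.7 CPM in Tg7 libraries. Gss lies opposite to Acss2 on the genome, and reads of overlapping genes cannot be separated without the strand setting of the counting, which the sources used here do not state.

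Of the Nrf2 axis, only Hmox1, which breaks down heme, was called. Nfe2l2 itself had 74.7, 54.7 and 57.7 CPM in Wt and 77.4, 76.7 and 57.7 CPM in Tg7 libraries at 2w, and 47.3, 54.1 and 59.8 CPM against 59.4, 60.9 and 61.04 CPM at 12w, with overlap at both ages. Its log2 fold change was 0.18 ± 0.15 at 2w (adjusted p = 0.487, edgeR) and 0.17 ± 0.15 at 12w (adjusted p = 0.473). Keap1 had 86.03, 88.9 and 85.9 CPM in Wt and 84.3, 77.6 and 77.8 CPM in Tg7 libraries at 2w, and 45.6, 82.9 and 98.8 CPM against 92.7, 91.7 and 93.1 CPM at 12w. Wt 12w replicate 1 was the 1 low library, and the log2 fold changes were -0.12 ± 0.20 and 0.28 ± 0.20. Without that library the 12w value was 0.00 ± 0.11. Nqo1, a quinone reductase and a textbook Nrf2 target, had 12.7, 13.6 and 18.5 CPM in Wt and 14.5, 10.7 and 9.49 CPM in Tg7 libraries at 2w, and 10.3, 10.2 and 8.93 CPM against 9.36, 11.3 and 12.6 CPM at 12w. Its groups overlapped, with log2 fold changes of -0.37 ± 0.21 and 0.18 ± 0.21. Srxn1, which repairs overoxidised peroxiredoxins, had 143, 148 and 166 CPM in Wt and 147, 87.2 and 80.9 CPM in Tg7 libraries at 2w, and 172, 157 and 169 CPM against 135, 119 and 133 CPM at 12w. Its Tg7 libraries lay below the Wt libraries at 12w but not at 2w. The log2 fold change was -0.53 ± 0.18 at 2w (adjusted p = 0.0769, edgeR) and -0.36 ± 0.18 at 12w (adjusted p = 0.179). None of these 4 genes was called at either age in the fit of all libraries, where Srxn1 at 2w was the 1 value with an unadjusted p below 0.05. Other fits called some of them. Srxn1 was downregulated at 2w with DESeq2 on that age alone, with no filter, with the replicate number as a block and without Tg7 2w replicate 1, and at 12w without the same library. Keap1 was upregulated at 12w without Wt 12w replicate 4, with that block and with library size alone, which also called Nfe2l2.

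Hmox1 lies on chromosome 8 (mm9, 77617490-77624495, plus strand). In 12w Wt libraries it had 14.2, 19.5 and 34.4 CPM, and in 12w Tg7 libraries 57.9, 43.3 and 57.8 CPM. The 12w groups did not overlap. The difference was 2.30-fold (log2 fold change 1.20 ± 0.27, adjusted p = 0.00541, edgeR). At 2w, Hmox1 had 56.4, 41.5 and 32.9 CPM in Wt and 62.7, 54.0 and 52.7 CPM in Tg7 libraries, groups that overlapped (log2 fold change 0.37 ± 0.26, adjusted p = 0.391). Hmox1 was downregulated from 2w to 12w in Wt islets (log2 fold change -0.92 ± 0.27, adjusted p = 0.0317) and its value in Tg7 islets was -0.09 ± 0.26 (adjusted p = 0.854). The summed level of 13 macrophage markers, cells known for Hmox1, was 101 to 114 CPM in 12w Wt and 88.4 to 93.8 CPM in 12w Tg7 libraries. Of the 12 markers tested, Csf1r was downregulated at 12w and 7 had a positive log2 fold change, with a median of 0.06. Their part in the values of Hmox1 was not tested.

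The core of the antioxidant response element, TGACNNNGC, was searched on both strands in 300-base promoter windows from RefSeq (GRCm38.p6, 250 bases before to 50 after the start), which matched 48 of the 56 genes. It was found in 9 genes (18.8%), beside 14.0% of all genes in the table. Hmox1, Gclc, Gsr, Gsta4, Gstt2, Prdx6, Sod3 and Gstm2-ps1 had no window in the table. The 9 matches are shown, since several of these genes are known Nrf2 targets, with the core in capitals and flanking bases in lower case, read 5′ to 3′ along the gene:
Gclm (chr3:122245413-122245441, plus strand gene): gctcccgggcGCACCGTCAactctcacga
Gsta3 (chr1:21240454-21240482, plus): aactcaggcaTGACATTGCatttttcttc
Gstm5 (chr3:107895802-107895830, plus): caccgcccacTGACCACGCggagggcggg
Gstm7 (chr3:107931725-107931753, minus): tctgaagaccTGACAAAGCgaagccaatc
Nfe2l2 (chr2:75704885-75704913, minus): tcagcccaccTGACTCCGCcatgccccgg
Prdx1 (chr4:116685456-116685484, plus): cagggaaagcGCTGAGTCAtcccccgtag
Sod1 (chr16:90220696-90220724, plus): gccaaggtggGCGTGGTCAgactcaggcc
Srxn1 (chr2:152105542-152105570, plus): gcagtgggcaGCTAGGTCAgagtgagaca
Txnrd1 (chr10:82859104-82859132, plus): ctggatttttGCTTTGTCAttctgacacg
Of these 9 genes, Gstm5 was called at both ages and the other 8 at neither. A match is a description of letters and not a bound site.

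Superoxide dismutases turn superoxide into hydrogen peroxide. The cytosolic Sod1 (log2 fold change 0.23 ± 0.15 at 2w and 0.14 ± 0.15 at 12w) and the mitochondrial Sod2 (0.09 ± 0.14 and 0.03 ± 0.14) were not called. Sod1 had 206, 219 and 199.989 CPM in Wt and 209, 235 and 288 CPM in Tg7 libraries at 2w, and 241, 269.8 and 203 CPM against 259, 234 and 291 CPM at 12w. Sod2 had 87.8, 82.1 and 79.9 CPM in Wt and 78.8, 88.98 and 97.5 CPM in Tg7 libraries at 2w, and 74.4, 79.7 and 106 CPM against 88.7, 87.5 and 89.9 CPM at 12w. The groups of both overlapped at both ages. The extracellular Sod3 was upregulated at 2w, with 11.7, 21.9 and 13.6 CPM in Wt and 24.4, 32.1 and 68.6 CPM in Tg7 libraries. These groups did not overlap, but 1 Tg7 library lay far above the others. The log2 fold change was 1.41 ± 0.41 (adjusted p = 0.0408, edgeR), and without Tg7 2w replicate 3 it was 0.84 ± 0.37 (adjusted p = 0.215). At 12w Sod3 had a log2 fold change of -0.26 ± 0.40 (adjusted p = 0.699).

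Gpx2, the glutathione peroxidase best known from gut epithelium, was downregulated at both ages. It lies on chromosome 12 (mm9, 77893322-77896541, minus strand). At 2w it had 46.4, 43.3 and 47.5 CPM in Wt and 22.0, 14.0 and 13.2 CPM in Tg7 libraries. At 12w it had 56.5, 25.2 and 36.4 CPM in Wt and 12.9, 11.8 and 16.5 CPM in Tg7 libraries. All 6 Tg7 libraries lay below all 6 Wt libraries. Gpx2 fell by 1.48 ± 0.26 on the log2 scale at 2w (adjusted p = 0.0029, edgeR) and by 1.51 ± 0.27 at 12w (adjusted p = 0.00108), to 0.359 and 0.351 of the Wt level. The opposite-strand neighbour Fntb, with which Gpx2 overlaps, had log2 fold changes of 0.18 ± 0.11 at 2w and 0.39 ± 0.11 at 12w, and so did not move down with it.

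Gpx2 was also 1 of only 2 tested members with a perfect match to the miR-7 seed in their longest annotated 3′ UTR, the other being Txn2, the mitochondrial thioredoxin. Because Tg7 mice carry extra miR-7, the RNA and both sites are shown, first mature miR-7a-5p from RefSeq with its seed (bases 2 to 8) in capitals and then the transcripts with the seed match in capitals (mm9 positions of the match):
mmu-miR-7a-5p: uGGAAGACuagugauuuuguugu
Gpx2 (chr12:77893584-77893590, minus strand): cccctgagcaGTCTTCCtcagggctca
Txn2 (chr15:77754657-77754663, minus strand): atcctctcagGTCTTCCtgccctgtcc
A match GTCTTCC was present in 4.0% of the 50 tested members and in 13.2% of 14406 tested genes with a 3′ UTR, and the UTRs of the members were shorter, with a median of 547 against 1151 bases. Txn2 was not called in Tg7 islets in the fit of all libraries, with a log2 fold change of 0.09 ± 0.12 at 2w and of -0.35 ± 0.12 at 12w (adjusted p = 0.0566, edgeR), although its 12w groups did not overlap. DESeq2 on all libraries called it downregulated at 12w, as did edgeR without Wt 12w replicate 4 or with replicate number as a block. A seed match does not show that miR-7 acts on the transcript.

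Of the other glutathione peroxidases, Gpx1 was downregulated and Gpx8 upregulated at 12w. Gpx1 was downregulated at 12w, from 257, 203 and 164 CPM in Wt to 124, 137 and 153 CPM in Tg7 libraries (log2 fold change -0.59 ± 0.19, adjusted p = 0.0384, edgeR). At 2w it had 124, 121 and 103 CPM in Wt and 127, 145 and 206 CPM in Tg7 libraries, so that all 3 Tg7 libraries lay above the Wt libraries, without passing the test (0.46 ± 0.19, adjusted p = 0.141). Without Tg7 2w replicate 3 the 2w value of Gpx1 was 0.21 ± 0.18 (adjusted p = 0.558), and without Wt 12w replicate 1 its 12w value was -0.43 ± 0.18 (adjusted p = 0.114). Gpx4, which protects membrane lipids from peroxidation, was not called in the fit of all libraries (0.47 ± 0.19 at 2w and -0.30 ± 0.19 at 12w). Gpx4 had 129.8, 126 and 100.5 CPM in Wt and 121, 157 and 214 CPM in Tg7 libraries at 2w, and 204, 162 and 139 CPM against 128, 133 and 148 CPM at 12w. Its groups overlapped at both ages. DESeq2 on the 2w libraries alone and scaling by library size called both Gpx1 and Gpx4 upregulated at 2w, and Gpx4 was also called without Tg7 2w replicate 1. Without Tg7 2w replicate 3 it had 0.22 ± 0.18 (adjusted p = 0.555). Gpx8, a peroxidase of the endoplasmic reticulum, was upregulated at 12w, from 0.756, 1.67 and 0.733 CPM in Wt to 1.92, 2.10 and 3.09 CPM in Tg7 libraries (log2 fold change 1.15 ± 0.37, adjusted p = 0.039). These 12w values of Gpx8 rest on 6 to 54 counts per library, and without Wt 12w replicate 1 the log2 fold change was 0.97 ± 0.40 (adjusted p = 0.105).

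Gpx3 was not called at either age in the fit of all libraries. At 2w it had 1449, 1741 and 1137 CPM in Wt and 1554, 2925 and 4227 CPM in Tg7 libraries, groups that overlapped (log2 fold change 1.01 ± 0.32, adjusted p = 0.0598, edgeR). DESeq2 on all 12 libraries called it at 2w, and without Tg7 2w replicate 3 edgeR gave 0.62 ± 0.31 (adjusted p = 0.28). At 12w it had 1408 to 2920 CPM in Wt and 2140 to 2769 CPM in Tg7 libraries (0.22 ± 0.32, adjusted p = 0.681).

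Prdx4, the peroxiredoxin of the endoplasmic reticulum, which uses peroxide to help form disulfide bonds, was the member with the smallest adjusted p at both ages. It lies on the X chromosome (mm9, 151758461-151775297, minus strand). At 2w it had 18.4, 25.1 and 20.5 CPM in Wt and 49.996, 38.7 and 40.6 CPM in Tg7 libraries. At 12w it had 27.1, 26.0 and 20.1 CPM in Wt and 93.0, 84.5 and 97.1 CPM in Tg7 libraries. No Tg7 library came near a Wt library at either age. The difference was 2.02-fold at 2w (log2 fold change 1.02 ± 0.16, adjusted p = 0.00113, edgeR) and 3.76-fold at 12w (1.91 ± 0.16, adjusted p = 2.81e-06).

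The cytosolic Prdx1 (log2 fold change 0.23 ± 0.14 and 0.09 ± 0.14 at 2w and 12w) and Prdx2 (0.10 ± 0.12 and 0.16 ± 0.12) were not called. Prdx1 had 193, 216 and 185 CPM in Wt and 234, 207 and 257 CPM in Tg7 libraries at 2w, and 277, 194 and 216 CPM against 232, 233 and 267 CPM at 12w. The groups of Prdx1 overlapped. Prdx3, the mitochondrial peroxiredoxin, was downregulated at 12w, from 66.4, 47.6 and 54.5 CPM in Wt to 42.3, 38.5 and 37.9 CPM in Tg7 libraries (-0.50 ± 0.14, adjusted p = 0.0193, edgeR). Prdx6, which also reduces lipid peroxides, was downregulated at 12w as well, from 252, 232 and 183 CPM to 165, 156 and 160 CPM (-0.47 ± 0.12, adjusted p = 0.0136). Both sets of groups lay apart. At 2w, the log2 fold changes were -0.16 ± 0.14 for Prdx3 and 0.10 ± 0.12 for Prdx6, and neither was called. The mitochondrial and peroxisomal Prdx5 had 86.5, 108 and 89.1 CPM in Wt and 107, 133 and 232 CPM in Tg7 libraries at 2w (0.73 ± 0.24, adjusted p = 0.0689). DESeq2 on all libraries called it, and without Tg7 2w replicate 3, its highest library, the value was 0.33 ± 0.20 (adjusted p = 0.375).

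**Figure D2:**
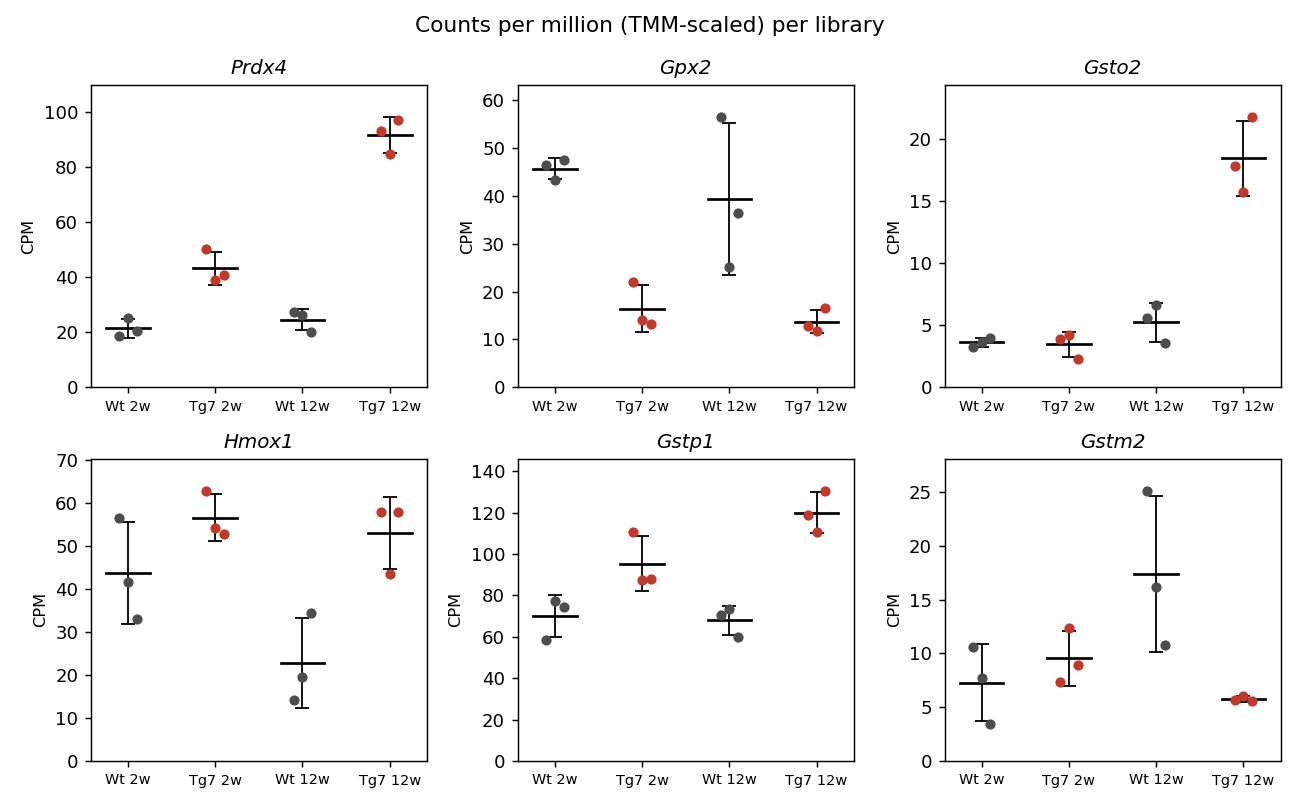
Level in CPM of 6 members in every library, grey for Wt and red for Tg7, with the mean (horizontal line) and SD (bars) of 3 libraries. Tg7 libraries lie above Wt for Prdx4 and Gstp1 and below for Gpx2 at both ages, while Gsto2 and Hmox1 lie above and Gstm2 below Wt at 12w.

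Thioredoxin and the glutaredoxins reduce protein disulfides. Txn1, Txn2, Txnrd1 and Txnrd3 were not called at either age in edgeR's fit of all libraries. Txn1 was called upregulated at 12w without Wt 12w replicate 1 (0.44 ± 0.14, adjusted p = 0.0409), and Txn1 and Txnrd1 were with library size alone. Txnrd1, the cytosolic thioredoxin reductase, had log2 fold changes of -0.01 ± 0.16 and 0.19 ± 0.16. Txnrd1 had 197, 226 and 232 CPM in Wt and 270.4, 186 and 195 CPM in Tg7 libraries at 2w, and 152, 143 and 198 CPM against 190.1, 186 and 185 CPM at 12w. Its groups overlapped at both ages. The mitochondrial reductase Txnrd2 was upregulated at 12w, from 8.32, 7.78 and 9.0 CPM in Wt to 12.5, 13.3 and 13.4 CPM in Tg7 libraries (0.64 ± 0.21, adjusted p = 0.0385, edgeR). Without Wt 12w replicate 1 it had 0.61 ± 0.23 (adjusted p = 0.0801). With no filter, with the replicate number as a block or with edgeR on each age alone, Txnrd2 was not called.

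Of the 4 glutaredoxins, Glrx and Glrx5 were downregulated at both ages, and Glrx2 and Glrx3 were not called. Cytosolic Glrx had 62.1, 58.0 and 49.1 CPM in 2w Wt and 36.1, 38.0 and 36.0 CPM in 2w Tg7 libraries, and 52.6, 44.4 and 49.1 CPM against 32.1, 34.1 and 37.2 CPM at 12w. It fell by 0.62 ± 0.12 on the log2 scale at 2w (adjusted p = 0.00592, edgeR) and by 0.50 ± 0.12 at 12w (adjusted p = 0.0107). Mitochondrial Glrx5, which carries iron-sulfur clusters, had 58.5, 54.2 and 50.8 CPM in 2w Wt and 32.2, 36.4 and 45.6 CPM in 2w Tg7 libraries, and 56.3, 69.2 and 49.1 CPM against 38.2, 38.2 and 38.3 CPM at 12w. It fell by 0.52 ± 0.15 at 2w (adjusted p = 0.0432) and by 0.61 ± 0.15 at 12w (adjusted p = 0.0108). For both genes, all 3 Tg7 libraries of an age lay below the Wt libraries of that age.

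Glutathione transferases couple glutathione to reactive compounds. Those upregulated at 2w belonged to the alpha, mu, theta and zeta classes. Gstt1 had 18.7, 17.8 and 13.03 CPM in 2w Wt and 23.4, 35.5 and 44.0 CPM in 2w Tg7 libraries (log2 fold change 1.06 ± 0.20, adjusted p = 0.00483, edgeR). Gstt2 had 14.3, 20.7 and 14.2 CPM against 22.8, 24.5 and 51.7 CPM (1.02 ± 0.30, adjusted p = 0.0433), and Gstt3 had 1.84, 1.25 and 1.38 CPM against 1.92, 4.16 and 9.64 CPM (1.81 ± 0.50, adjusted p = 0.0359). All 3 tested theta class genes were thus upregulated, and Tg7 2w replicate 3 held the highest value of each. With edgeR on each age alone, Gstt2 and Gstt3 were not called. Gsta4, known for its action on lipid aldehydes, had 1.07, 1.10 and 0.958 CPM in 2w Wt and 2.67, 2.66 and 6.46 CPM in 2w Tg7 libraries (1.91 ± 0.53, adjusted p = 0.0353). Its relatives Gsta2 and Gsta3 had log2 fold changes of 1.59 ± 0.50 (adjusted p = 0.0561) and 1.56 ± 0.52 (adjusted p = 0.0699), with overlapping groups. DESeq2 on all libraries called both upregulated at 2w, and DESeq2 on each age alone called Gsta3. Without Tg7 2w replicate 3 the log2 fold changes of Gsta2 and Gsta3 were 0.74 ± 0.42 (adjusted p = 0.346) and 0.87 ± 0.50 (adjusted p = 0.353) in edgeR. None of these theta and alpha genes was called at 12w, where their log2 fold changes ran from -0.29 to 0.27.

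**Figure D3:**
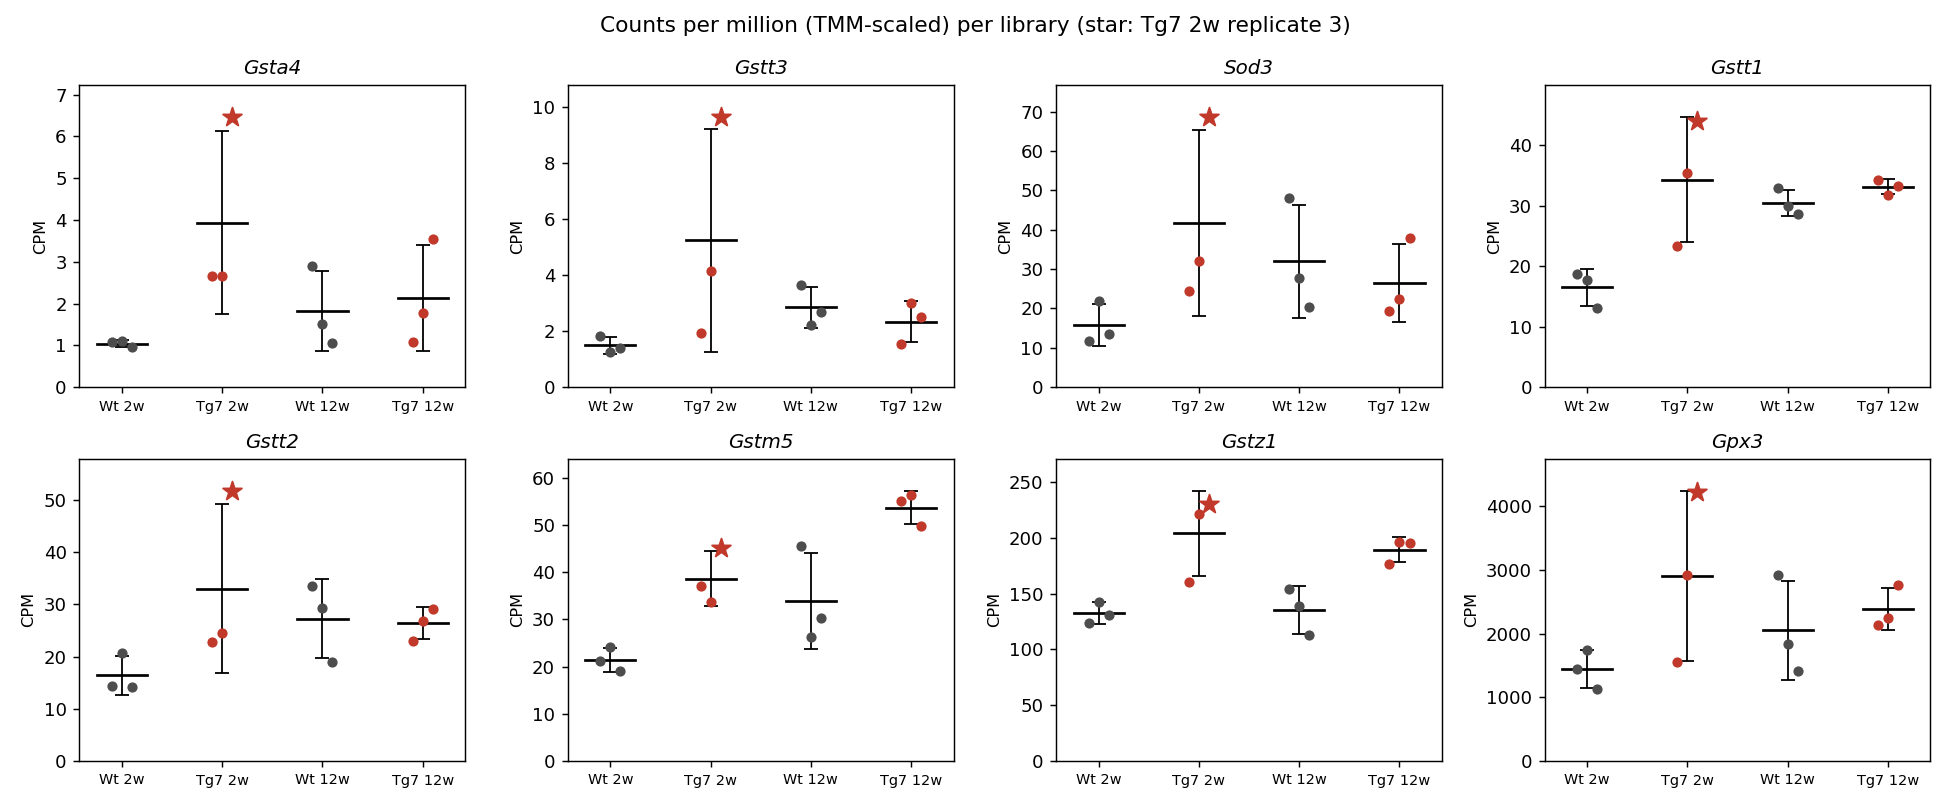
Level in CPM of 7 members upregulated at 2w and of Gpx3 in every library, grey for Wt and red for Tg7, with mean (horizontal line) and SD (bars) of 3 libraries. The star is Tg7 2w replicate 3, which has the highest 2w value in all 8 panels.

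Without Tg7 2w replicate 3, 2 members were upregulated at 2w, Prdx4 (log2 fold change 1.05 ± 0.18, adjusted p = 0.0039, edgeR) and Gstt1 (0.82 ± 0.20, adjusted p = 0.0251), and the same 3 were downregulated. Gsta4 then had 1.34 ± 0.53 (adjusted p = 0.172), Gstt3 1.0 ± 0.44 (adjusted p = 0.218) and Gstt2 0.52 ± 0.24 (adjusted p = 0.243). Sod3, Gstm5 and Gstz1 were not called either, with adjusted p of 0.215, 0.0543 and 0.0905. Other libraries also moved the 2w list: 3 members were upregulated without replicate 1 of the 2w Wt group, 2 without its replicate 3 and 4 without replicate 2 of the 12w Tg7 group. There were 15 without Tg7 2w replicate 1 and 13 without Wt 12w replicate 4. Of all tested genes, 969 were upregulated at 2w with all libraries. In these fits, in the same order, 491, 377, 683, 1060 and 1613 were.

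Gstm5 and Gstz1 were upregulated at both ages. At 12w neither was called with the replicate number as a block or with edgeR on each age alone. Gstm5, a mu class transferase, had 21.2, 24.1 and 19.1 CPM in 2w Wt and 37.1, 33.7 and 45.2 CPM in 2w Tg7 libraries (log2 fold change 0.85 ± 0.19, adjusted p = 0.0108, edgeR). At 12w it had 45.5, 26.2 and 30.3 CPM against 55.1, 56.4 and 49.8 CPM (0.67 ± 0.19, adjusted p = 0.0192). The groups did not overlap at either age. An overlapping noncoding gene on the other strand, 4933431E20Rik, moved in the same direction (0.48 ± 0.20 at 2w and 0.96 ± 0.21 at 12w), and reads of the pair may not be separated. Gstz1, which acts in tyrosine breakdown, had 123, 143 and 131 CPM in 2w Wt and 161, 222 and 230.0 CPM in 2w Tg7 libraries (0.62 ± 0.15, adjusted p = 0.0187) and 155, 139 and 113 CPM against 177, 196 and 196 CPM at 12w (0.49 ± 0.15, adjusted p = 0.033).

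At 12w, 3 further transferases were called, and all 3 kept their call with each library left out in turn and with the other tools and scalings tried. Gsto2 of the omega class, which acts on dehydroascorbate, lies on chromosome 19 (mm9, 47940035-47960814, plus strand) and had 5.55, 6.59 and 3.53 CPM in 12w Wt and 17.8, 15.7 and 21.7 CPM in 12w Tg7 libraries. The difference was 3.54-fold (log2 fold change 1.83 ± 0.28, adjusted p = 0.000368, edgeR). Gsto2 overlaps Wdr96 on the other strand, which held 355 counts over all libraries beside 1521 for Gsto2. The 12w log2 fold change of Wdr96 was 0.64 ± 0.53, and reads of the pair may not be separated. Gstp1 of the pi class (chromosome 19, 4035411-4037921, minus strand) had 70.7, 73.4 and 60.002 CPM against 119, 111 and 130.5 CPM (0.82 ± 0.14, adjusted p = 0.00104). At 2w it had 58.7, 77.4 and 74.4 CPM in Wt and 110.8, 87.7 and 87.9 CPM in Tg7 libraries. These 2w groups did not overlap (0.44 ± 0.14, adjusted p = 0.0601, edgeR). DESeq2 on all libraries or on each age called Gstp1 upregulated at 2w. So did edgeR with upper-quartile factors, library size alone, the stricter filter or the replicate number as a block. Gstm2 of the mu class (chromosome 3, 107784620-107789371, minus strand) was downregulated, from 25.1, 16.2 and 10.7 CPM in Wt to 5.64, 6.03 and 5.55 CPM in Tg7 libraries (-1.58 ± 0.37, adjusted p = 0.00759). In all 3 genes the 12w groups lay apart. Gstm2 was thus lower, and Gstm5 of the same class higher, in Tg7 than in Wt islets at 12w. Single values of transferases with similar paralogs, such as Gstp1 and Gstp2, are uncertain where the counting could split or share reads between them, which was not measured here.

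Which calls rested on single libraries was read from 12 fits that each left out 1 library. Prdx4 and Gpx2 at both ages, Gstt1 and Glrx at 2w, and Gsto2, Hmox1, Gstp1 and Gstm2 at 12w were called in all 12. Of the other 2w calls, Gstm5 was called in 10 fits, Gstz1 in 8, Gsta4 and Sod3 in 7, Gstt3 in 6, and Gstt2 and Glrx5 in 4. Of the other 12w calls, Glrx and Glrx5 were called in 11, Prdx3 in 10, Gstm5 and Prdx6 in 9, Gstz1 in 8, and Gpx1, Gpx8 and Txnrd2 in 5. The log2 fold changes of the last 3 genes stayed between -0.73 and -0.43, between 0.91 and 1.66, and between 0.59 and 0.70. Leaving out Tg7 12w replicate 1, 2 or 3 gave 4, 4 and 5 upregulated and 3, 4 and 4 downregulated members at 12w. Of all tested genes, 1492, 1403 and 1406 were then upregulated and 1030, 1014 and 1012 downregulated, beside 1989 and 1783 with all libraries.

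The Tg7 effect differed between 12w and 2w for 1 member, Gsto2, beside 1.18% of all tested genes. Its log2 fold change was larger at 12w by 1.90 ± 0.40 (adjusted p = 0.0345, edgeR's test of the difference). At 2w Gsto2 had 3.26, 3.61 and 3.94 CPM in Wt and 3.84, 4.22 and 2.28 CPM in Tg7 libraries, groups that overlapped (-0.07 ± 0.28, adjusted p = 0.904). In 8 of the 12 fits that left out 1 library, this difference was no longer called. It was 1.92 ± 0.43 (adjusted p = 0.062) without Wt 12w replicate 1 and 1.70 ± 0.38 (adjusted p = 0.0637) without Tg7 2w replicate 3. No member had a significantly lower signed log2 fold change at 12w than at 2w. In that direction 13 had an unadjusted p below 0.05, and DESeq2 called 3 of them, Gpx1, Gstm2 and Prdx6. The log2 fold changes of these 3 were 0.46, 0.39 and 0.10 at 2w and -0.59, -1.58 and -0.47 at 12w. The differences were -1.05 ± 0.27 for Gpx1 (adjusted p = 0.0812), -1.98 ± 0.52 for Gstm2 (adjusted p = 0.0895) and, in the other direction, 0.90 ± 0.22 for Prdx4 (adjusted p = 0.0746). For the theta and alpha class genes called at 2w and not at 12w, a difference between the ages is therefore not shown.

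With age, Wt islets gained several of these transcripts. Between 2w and 12w, 7 members were upregulated in Wt islets (Gstm2, Prdx6, Gstt1, Gstm1, Gpx1, Gstm5 and Txn2) and 2 downregulated (Gpx8 and Hmox1), 18% of the members beside 15.8% of all tested genes (7.90% up, 7.91% down). Prdx6 went from 109, 98.2 and 96.0 CPM to 252, 232 and 183 CPM (log2 fold change 1.14 ± 0.12, adjusted p = 5.74e-05, edgeR). Gstm2 rose by 1.25 ± 0.37 (adjusted p = 0.0346), Gstt1 by 0.88 ± 0.20 (adjusted p = 0.0101) and Gstm1 by 0.87 ± 0.20 (adjusted p = 0.00992). Gpx8 went from 3.62, 5.45 and 4.04 CPM to 0.756, 1.67 and 0.733 CPM (-2.03 ± 0.37, adjusted p = 0.00238). These counts turned over with the scaling: with library size alone, 1 member was upregulated and 11 were downregulated with age in Wt islets, and the median of all genes moved by -0.39 (log2) against TMM. Of all tested genes, 325 were upregulated and 3795 downregulated in that fit. Only Prdx6 of the 7 members kept its call there, while Gpx8 and Hmox1 kept theirs. Hmox1 was called in 8 of the 12 fits that left out 1 library and Gstm2 in 6. Without Wt 12w replicate 1, Gstm2 had 0.90 ± 0.37 (adjusted p = 0.14), Gstm5 0.41 ± 0.16 (adjusted p = 0.108), Txn2 0.40 ± 0.13 (adjusted p = 0.0546) and Hmox1 -0.68 ± 0.26 (adjusted p = 0.108) with age.

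In Tg7 islets, 3 members rose with age and 1 fell, 8% of the members beside 13.0% of all tested genes (7.02% up, 6.01% down). Gsto2 rose by 2.42 ± 0.28 on the log2 scale (adjusted p = 0.000108, edgeR), Prdx4 by 1.09 ± 0.15 (adjusted p = 0.00049) and Prdx6 by 0.56 ± 0.12 (adjusted p = 0.00836), while Gpx8 fell by 1.26 ± 0.33 (adjusted p = 0.0231). Without Tg7 2w replicate 3 Gpx8 had -1.28 ± 0.38 (adjusted p = 0.0502). Prdx4 in Wt islets had 0.19 ± 0.16 with age (adjusted p = 0.446). The Wt and Tg7 age comparisons share no library with each other, but each shares its libraries with the comparisons of genotype.

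**Figure D4:**
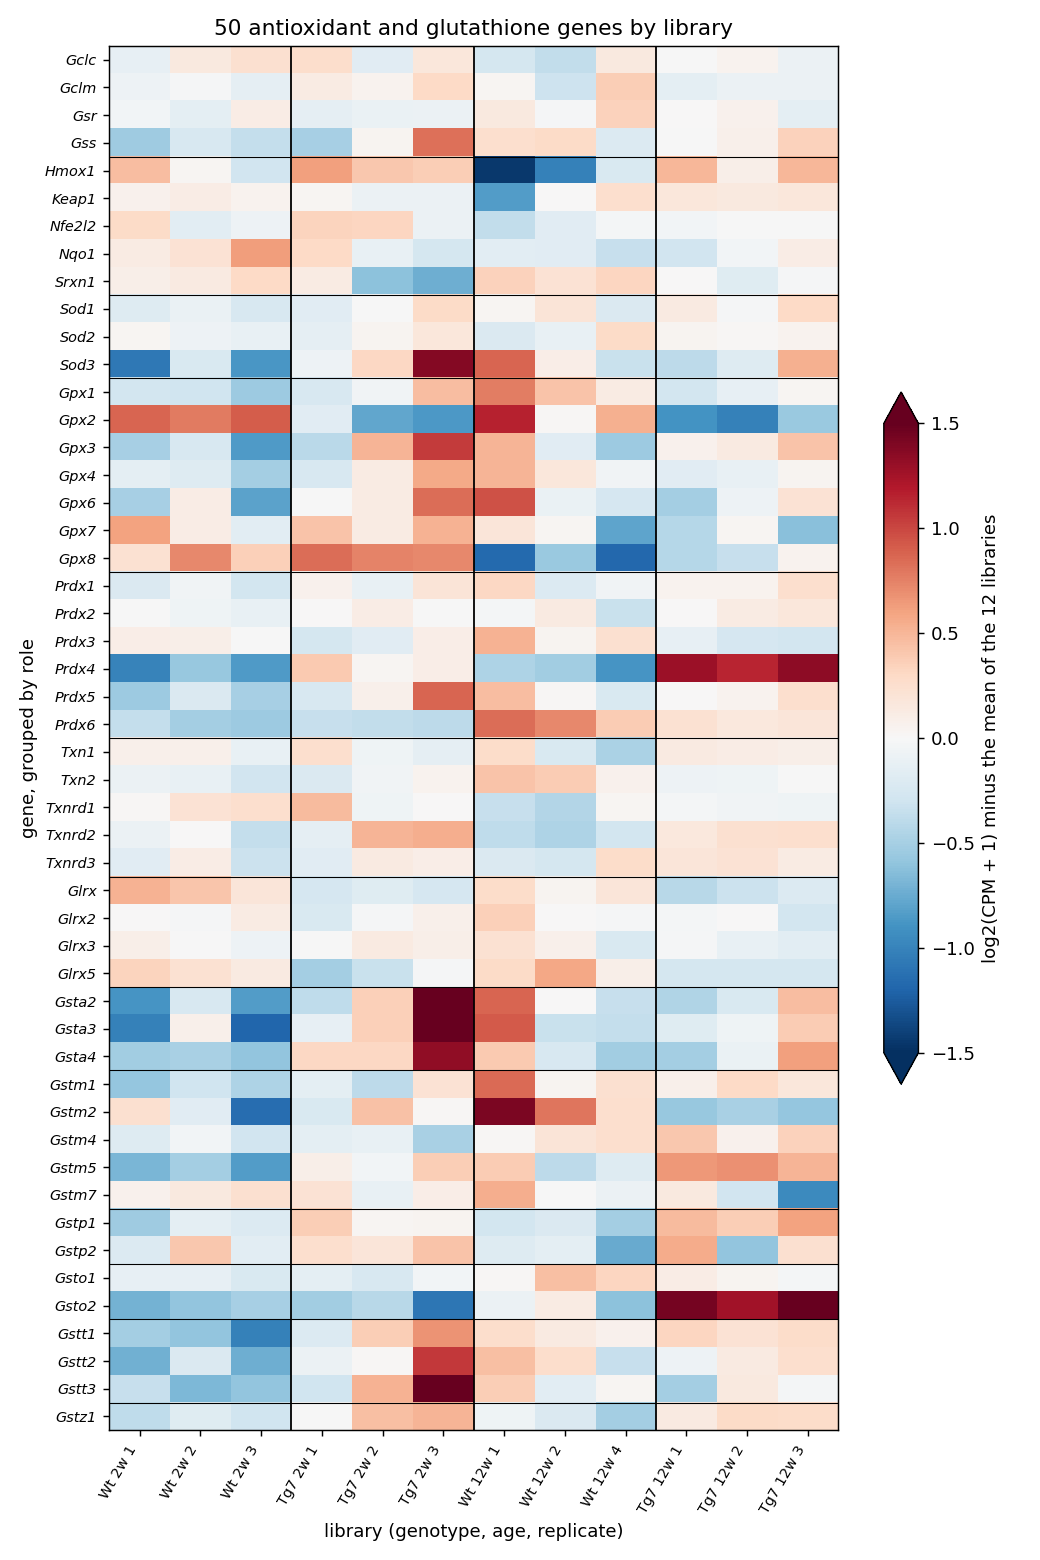
Level of the 50 tested genes in the 12 libraries, as log2(CPM + 1) minus the gene's mean over all libraries, grouped by role; colours are capped at 1.5 in both directions. The Prdx4 and Gsto2 rows are red in the 3 Tg7 12w libraries, the Gpx2 row is blue in the Tg7 libraries of both ages (palest in Tg7 2w replicate 1), and the alpha and theta rows are reddest in Tg7 2w replicate 3.

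Summed markers of several other cell types differed between the genotypes, while those of alpha and delta cells overlapped at both ages. At 12w the 8 alpha cell markers summed to 25875.5 to 46769.2 CPM in Wt and 30673.8 to 45015.5 CPM in Tg7 libraries. The 5 delta cell markers summed to 2002 to 4853 CPM and 2193 to 3024 CPM. Of the alpha cell markers, 1 was upregulated at 2w and 2 at 12w, and of the delta cell markers 1 at each age. The summed level of 12 stellate and fibroblast markers was 380 to 523 CPM in 2w Wt and 564 to 912 CPM in 2w Tg7 libraries, and 95.8 to 159 CPM against 411 to 431 CPM at 12w, with 7 and 10 of the 12 markers upregulated. The 12 endothelial markers summed to 520 to 639 CPM in 12w Wt and 1048 to 1099 CPM in 12w Tg7 libraries, with 11 upregulated, and their ranges overlapped at 2w. The 10 ductal markers summed to 509 to 678 CPM in 12w Wt and 784 to 1078 CPM in 12w Tg7 libraries, with Spp1 and Muc1 upregulated, and overlapped at 2w. Only 5 of the 9 ductal markers tested had a positive log2 fold change at 12w, with a median of 0.24. The 7 erythroid markers summed to 9.20 to 34.9 CPM and 40.7 to 58.4 CPM at 12w, with Hbb-b1 and Hbb-b2 upregulated, and overlapped at 2w. The summed level of the 14 acinar markers was lower in Tg7 libraries, at 56.4 to 66.7 CPM in Wt and 37.8 to 49.8 CPM in Tg7 at 2w. At 12w it was 75.9 to 99.95 CPM and 51.9 to 56.3 CPM. Amy2b was at 0, and 1 marker at 2w and 2 at 12w were downregulated. Of the 10 acinar markers tested, 7 had a positive log2 fold change at 2w, with a median of 1.19. At 12w, 2 of them did, with a median of -0.49. Gpx8, too, was higher in Tg7 than in Wt islets at 12w and lowest in 12w Wt islets. The part of these cells in the values of Gpx8, Hmox1, Gstp1 or any other member was not tested.

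Genes that feed or surround the same pathways were counted on 6 further lists, beside the same backgrounds of 10.6% at 2w and 23.6% at 12w. Of 21 genes for glutathione supply and breakdown, 2 were upregulated at 2w, and 1 was upregulated and 2 downregulated at 12w. Those called at 12w were Ggt5, a γ-glutamyl transferase relative (log2 fold change 2.11 ± 0.54, adjusted p = 0.0126, edgeR), Cbs, which opens the route from homocysteine to cysteine (-1.15 ± 0.26, adjusted p = 0.00637), and Slc3a2, the heavy chain of the cystine transporter (-0.96 ± 0.24, adjusted p = 0.0103). The level of Ggt5 was low, at 0.547 ± 0.367 CPM in Wt and 2.56 ± 0.617 CPM in Tg7 islets at 12w (SD, n = 3). Cbs and Slc3a2 were not called with library size alone. Of 25 tested genes for other peroxide, repair and conjugation enzymes, 3 were up and 3 down at 2w, and 3 up and 4 down at 12w. Ero1lb, the β-cell form of the oxidase that passes electrons from disulfide formation to oxygen and makes peroxide, had the largest log2 fold change among those called at 12w, going from 1666 ± 461 CPM in Wt to 296 ± 9.18 CPM in Tg7 islets (SD, n = 3; log2 fold change -2.49 ± 0.18, adjusted p = 9.53e-07). It was downregulated while Prdx4, which removes peroxide in the same compartment, was upregulated. Txnip, which binds thioredoxin (1.44 ± 0.44, adjusted p = 0.0297), and Msrb3, a methionine sulfoxide reductase (1.44 ± 0.30, adjusted p = 0.00373), were upregulated at 12w. Txnip was called in 8 of the 12 fits that left out 1 library, and not without Wt 12w replicate 1.

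NADPH is the final electron donor of both systems. Of 16 genes for its supply, 2 were upregulated at 2w, and 2 were upregulated and 3 downregulated at 12w. Me3, a mitochondrial malic enzyme, was upregulated at both ages (1.23 ± 0.23, adjusted p = 0.00398, and 1.66 ± 0.23, adjusted p = 0.000192, edgeR). In the pentose phosphate pathway at 12w, Pgd was upregulated (0.62 ± 0.19, adjusted p = 0.0307) and G6pdx, which opens the pathway, was downregulated (-0.58 ± 0.16, adjusted p = 0.0164). Pgd was called in 8 of the 12 fits that left out 1 library, and not without Wt 12w replicate 1. G6pdx was called in 10 of them, but not with library size alone or the replicate number as a block. Of 26 tested Nrf2 partners and further targets, 1 was downregulated at 2w, and 1 was upregulated and 2 downregulated at 12w. Ftl1, a ferritin chain that stores iron, was downregulated (-1.20 ± 0.18, adjusted p = 0.000403), as was the Nrf2 partner Mafk (-0.67 ± 0.18, adjusted p = 0.0135). Blvrb, a biliverdin reductase, was upregulated (0.66 ± 0.21, adjusted p = 0.0335). Blvrb was called in 7 of the 12 fits that left out 1 library and in 4 of 8 other settings. Mafk was called in 11 of those 12 fits, but not with library size alone or the replicate number as a block.

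Selenocysteine is the active residue of several glutathione peroxidases and of the thioredoxin reductases. The next list held 16 genes that encode selenoproteins or serve to make them. Of these, 1 was up and 4 down at 2w, and 0 were up and 3 down at 12w. Downregulated at 12w were the selenoprotein genes 2810407C02Rik, also named Selenot (-1.01 ± 0.17, adjusted p = 0.000764, edgeR), and Sepw1, also named Selenow (-0.91 ± 0.26, adjusted p = 0.0198). Scly, which frees selenium from selenocysteine, was the other (-0.49 ± 0.13, adjusted p = 0.0134). Sepw1 was called in 7 of the 12 fits that left out 1 library, and not without Wt 12w replicate 1. Scly was called in 10 of them, and neither gene was called with library size alone. Of 9 tested genes of superoxide-producing oxidases, 2 were upregulated at 2w and 2 at 12w. The latter were Xdh, xanthine dehydrogenase (1.0 ± 0.27, adjusted p = 0.0152), and the oxidase organiser Noxo1 (0.97 ± 0.31, adjusted p = 0.0344). Noxo1 was called in 7 of the 12 fits that left out 1 library, and not without Wt 12w replicate 1 or with the replicate number as a block.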

How the data were processed

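RNA of pooled islets was sequenced as 12 libraries, 3 per group. The authors trimmed paired-end reads (Trimmomatic), aligned them to mm9 (TopHat2 2.0.11) and deposited raw counts per gene from featureCounts; the strand setting is not stated in the sources used here. For base calling the labels name bcl2fastq 2.20.0, and the study's methods name CASAVA instead. From these counts, genes were kept by edgeR's filterByExpr (minimum count 10, minimum total 15), scaled with TMM factors and tested with edgeR 4.0.16 (R 4.3.3, limma 3.58.1) by its quasi-likelihood F test in 1 model of 4 group means, p values adjusted by the Benjamini-Hochberg method and called below 0.05. The fit was tested on simulated data. The common biological coefficient of variation was 0.212.

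Alternatives were upper-quartile factors, scaling by library size alone, a stricter filter (50 counts in 3 libraries) or none, a replicate block, each age alone, DESeq2 1.42.0, a threshold of 0.1, and each library left out. Gene positions are from GENCODE M1 (mm9); 37205 of 37991 identifiers matched. Members and lists were chosen with earlier results of these data known. Named with library values were members called in Tg7 against Wt (up to 12 an age, by absolute log2 fold change), members called for the difference between ages, up to 5 called members per age comparison and 15 core genes regardless of call; of the further lists, up to 3 genes called at 12w with the largest absolute log2 fold change. Other members and Me3 at 2w were named after their values were seen. Replicate numbers did not pair the libraries. Figures were drawn with matplotlib 3.10.9 (Python 3.11.15, pandas 2.3.3).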

Additional observations from a re-analysis of the deposited data

Results flagged for a closer look

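The omega class transferase Gsto2 stood out because its Tg7 effect differed between the ages: the log2 fold change at 12w was 1.90 larger than at 2w (SE 0.40, adjusted p = 0.0345, edgeR's quasi-likelihood test of the difference). All 3 Tg7 libraries lay above the Wt libraries at 12w, and the groups overlapped at 2w. With 1 library left out at a time the difference ranged from 1.67 to 2.12, and it was called in 4 of 12 such fits. The largest adjusted p over these fits and the other settings was 0.119.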

How the results depend on the processing

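Calls of members in every comparison and of the named genes of the further lists at 12w made 57 together. Of these 57 calls, 21 held in all settings tried and in all fits lacking 1 library. In Tg7 against Wt these included Prdx4 and Gpx2 at both ages. The cause of the changes below was not tested. For the difference between ages, larger and smaller refer to the signed log2 fold change at 12w against that at 2w. With library size alone, members called at 2w were 15 up and at 12w 17 up and 2 down. The difference between ages had 2 larger, and with age in Wt 1 was up and 11 were down. The median of all genes then moved by 0.17 at 2w and 0.44 at 12w. Of all tested genes, 1670 were up at 2w, 5198 up and 360 down at 12w, and 325 up and 3795 down with age in Wt. Upper-quartile factors gave 4 down at 12w. Without the filter the difference had 2 larger and 3 smaller. DESeq2 on all libraries gave 13 up at 2w, and 2 larger and 3 smaller. A threshold of 0.1 gave 13 up at 2w, 2 larger and 2 smaller, and 4 down with age in Wt. edgeR on each age alone gave 4 up at 12w. The replicate block gave 5 up at 12w, 4 smaller and 13 up with age in Wt; same-numbered libraries deviated with correlations of -0.167 to -0.0112, so the numbers do not pair them.

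With 1 library left out, calls ranged from 2 to 15 up and 2 to 3 down at 2w, 4 to 8 up and 3 to 8 down at 12w, 0 to 3 larger and 0 to 3 smaller, 2 to 10 up and 1 to 4 down with age in Wt, and 3 to 4 up and 0 to 1 down in Tg7. Over the same fits, 377 to 1613 of all tested genes were up and 377 to 1458 down at 2w. At 12w, 1403 to 2148 were up and 1012 to 2048 down. The genes that turned sign were not called in the fits in which their sign turned. With library size alone they were, at 2w, Txnrd1 (0.16), Gsr (0.0799) and Keap1 (0.0445), and at 12w Gpx4 (0.16), Srxn1 (0.0851), Gclm (0.27) and Gsr (0.24). Txnrd1 at 2w was 0.0496 with upper-quartile factors and 0.0157 with the stricter filter, and Gclc -0.0065 without the filter. With the replicate block at 12w Sod1 was -0.0288, Gss -0.29 and Gclm 0.0125, and Gss was -0.011 on each age alone. With 1 library left out, values that turned sign ranged at 2w from -0.1931 to 0.0887 (Txnrd1), from -0.1019 to 0.1201 (Gclc) and from -0.0009 upward (Sod2, to 0.1672), and at 12w from -0.0904 to 0.2064 (Sod2), from -0.1211 to 0.1133 (Gss), from -0.3205 to 0.0308 (Gclm) and from -0.0125 to 0.2284 (Prdx1).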
